A study of Mus musculus with 8 samples.

Results

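The genes described here are 40 members of the endoplasmic reticulum (ER) folding and secretory machinery of the mouse, chosen by name and followed in triceps muscle of Nf1Prx1 mutant and control animals. They cover 9 roles, from the chaperones and disulfide isomerases that fold new proteins to the coat and cargo receptors that carry them out of the ER. Of the 40 genes, 38 had a level among the 19938 genes measured. Sec61g was left out because the clusters that list it also list pseudogenes, and Kdelr2 because no cluster was listed for it. RNA came from triceps of 4 mice of genotype Nf1Prx1 and 4 wild-type controls, all 3 months old and on standard chow, and each animal had its own Affymetrix Mouse Gene 1.0 ST array. In Nf1Prx1 mice, Nf1 is removed by a Cre recombinase under the Prx1 limb enhancer, which acts in the limb bud mesenchyme, so cells outside that lineage keep the gene. Nf1 encodes neurofibromin, which turns Ras off, and the title of the series places the comparison in skeletal muscle development. A level is the log2 value of a gene's transcript cluster after robust multi-array averaging (RMA), and precision is limited by there being 4 arrays per group.

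Proteins with a signal sequence enter the ER through the Sec61 channel, where Hsp70- and Hsp90-type chaperones, lectin chaperones and disulfide isomerases fold them. Folded proteins leave in COPII-coated vesicles and misfolded ones are drawn back to the cytosol for degradation. When unfolded proteins build up, the sensors Ire1 (encoded by Ern1), Perk (Eif2ak3) and Atf6 switch on the unfolded protein response, which raises many of these genes. Secretory cells such as pancreatic acinar cells, plasma cells and fibroblasts hold much rough ER, and muscle fibres hold less of it.

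Some arrays stood apart from their group before any member was considered. The 22 measured of 26 pancreatic acinar markers averaged 13.20 in Nf1Prx1 2 and 6.50 to 7.71 in the other 3 mutants, against 6.48 to 9.01 in the controls, with control 2 the highest of these. Ctrb1, which encodes the digestive enzyme precursor chymotrypsinogen, had a level of 14.36 in Nf1Prx1 2, 10.27 in Nf1Prx1 3 and 11.90 in control 2. Markers of neutrophils and marrow averaged 9.43 in Nf1Prx1 1 and 9.0 in control 1, and 6.64 to 7.24 in the other arrays. The same pair of arrays had the highest means of brown adipocyte markers, 8.57 in Nf1Prx1 1 and 8.45 in control 1, and 6.78 to 7.01 in the other arrays. In both arrays this came from Ucp1 and Cidea and not from the whole list. Ucp1, the uncoupling protein of brown fat, read 9.75 in Nf1Prx1 1 and 10.18 in control 1, and 6.01 to 6.24 elsewhere. Elovl3 and Dio2 lay within the range of the other arrays in both. Ppara was highest in Nf1Prx1 1, but in control 1 it was the lowest of the controls. The 11 muscle fibre markers averaged 12.90 to 13.41 in Nf1Prx1 triceps and 13.35 to 13.43 in controls, so the labelled tissue was borne out in each array. Acinar cells are among the cells richest in ER, so the members' differences are also given without Nf1Prx1 2 (unpaired means) or, where an adjusted p is given, without both arrays of number 2 (paired fit). Nf1 itself read 8.81, 8.63, 8.73 and 8.72 in Nf1Prx1 triceps 1 to 4, against 8.82, 8.92, 8.98 and 8.69 in controls 1 to 4. That difference of -0.13 did not pass in limma, with adjusted p = 0.599, and a level over the whole transcript does not report on a deletion of part of the gene.

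**Figure D1:**
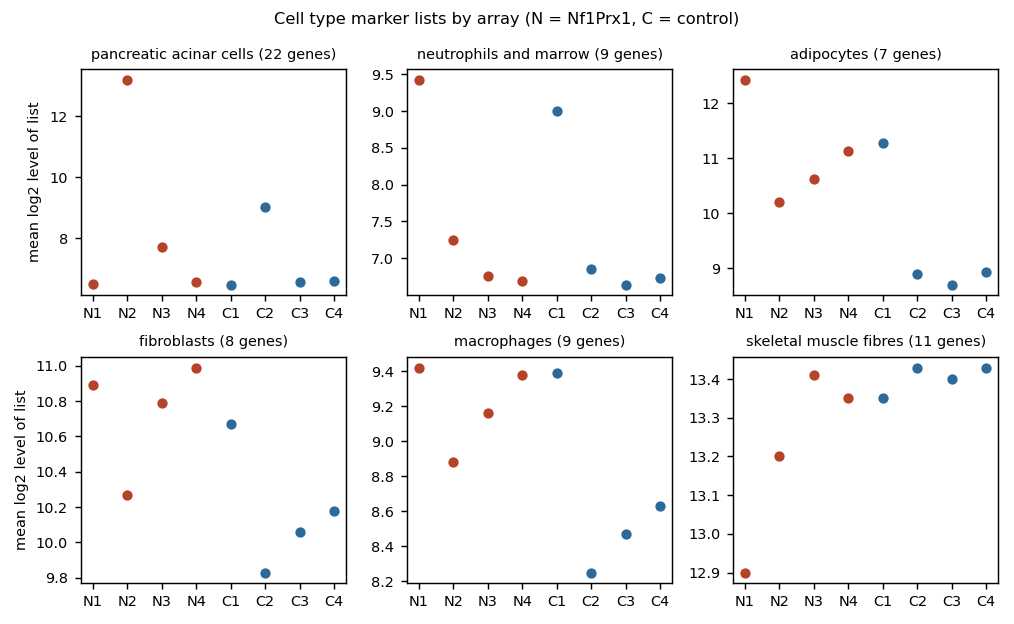
Mean log2 level of 6 cell type marker lists in each array, with Nf1Prx1 arrays (N1 to N4, red) left of control arrays (C1 to C4, blue). Acinar markers averaged 13.20 in Nf1Prx1 2, neutrophil markers 9.43 in Nf1Prx1 1 and 9.0 in control 1, and adipocyte and fibroblast markers were lowest in controls 2, 3 and 4.

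What the members share in sequence was looked at in their promoters, because the unfolded protein response acts through short DNA elements close to the start site. RefSeq windows on GRCm38.p6, 250 bases before to 50 after a start site, were found for 32 of the 40 members. The ER stress response element, searched on both strands as CCAAT, 9 bases of any kind and CCACG, was present in 7 of these 32 members (21.9%), against 37 of all 27025 genes with a window (0.137%), the 7 included. The members were Hspa5, Hsp90b1, Dnajc3, Pdia6, Creld2, Calr and Canx, and their sites are shown because the element is a known control point of this gene set. Each is printed on the strand of the gene, the capitals mark the element and 20 bases are shown on each side of it. Elements that begin CGTGG lie on the opposite strand. The Hsp90b1 promoter held it in both orientations, so its stretch is longer.
Hspa5 (chr2:34772005-34772063, plus strand): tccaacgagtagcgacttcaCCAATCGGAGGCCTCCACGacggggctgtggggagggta
Hsp90b1 (chr10:86705513-86705676, minus strand): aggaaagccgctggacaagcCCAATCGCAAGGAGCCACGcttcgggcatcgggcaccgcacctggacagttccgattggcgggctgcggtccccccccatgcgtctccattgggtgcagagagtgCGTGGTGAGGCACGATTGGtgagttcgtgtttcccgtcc
Dnajc3 (chr14:118937807-118937865, plus strand): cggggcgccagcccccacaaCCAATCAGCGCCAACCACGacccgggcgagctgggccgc
Pdia6 (chr12:17266471-17266529, plus strand): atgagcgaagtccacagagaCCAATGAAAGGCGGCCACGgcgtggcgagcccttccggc
Creld2 (chr15:88819500-88819558, plus strand): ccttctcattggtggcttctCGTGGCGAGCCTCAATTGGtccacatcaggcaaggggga
Calr (chr8:84847055-84847113, minus strand): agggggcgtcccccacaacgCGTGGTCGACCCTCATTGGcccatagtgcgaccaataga
Canx (chr11:50325780-50325838, minus strand): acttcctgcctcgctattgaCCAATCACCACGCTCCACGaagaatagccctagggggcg

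A second form of the element, ATTGG, 1 base of any kind and CCACG, was present in 2 of the 32 members (6.25%), Herpud1 and Dnajb11, against 12 genes in all (0.0444%). The octamer TGACGTGG, the core of the unfolded protein response element, was present in 3 members (9.38%), Sec24d, Kdelr3 and Sec23a, against 193 genes in all (0.714%). The 3 motifs did not overlap one another in any member's window. The Herpud1 site is shown as an example of the second form, and the Sec24d and Kdelr3 sites as examples of the octamer. The motif is in capitals. Kdelr3 holds the octamer on the opposite strand.
Herpud1 (chr8:94386357-94386407, plus strand): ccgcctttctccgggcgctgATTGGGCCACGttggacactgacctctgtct
Sec24d (chr3:123267450-123267497, plus strand): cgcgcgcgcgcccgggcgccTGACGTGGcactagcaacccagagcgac
Kdelr3 (chr15:79516358-79516405, plus strand): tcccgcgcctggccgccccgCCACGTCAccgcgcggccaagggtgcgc

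Across the 38 measured members, the mean level was higher in Nf1Prx1 triceps for 30 and lower for 8. Of all 19938 genes, 8307 were higher and 11631 lower. The members' median difference (Nf1Prx1 minus control, log2) was 0.19, against -0.04 over all genes. Without Nf1Prx1 2 the members split into 25 higher and 13 lower, and all genes into 7720 and 12218. The members' median was then 0.11, against -0.05 over all genes. In the limma fit of Nf1Prx1 against control arrays no gene of 19938 passed an adjusted p of 0.05, and 2709 had an unadjusted p under 0.05. Among the members, 7 had an unadjusted p under 0.05 in this unpaired fit, all but Sec23a with higher levels, and the lowest adjusted p was 0.125. The replicate numbers in the labels were then used as a block, because the arrays of each number deviated together from their group means. In this paired fit 670 genes passed as higher (3.36%) and 997 as lower (5.00%). Of the 38 members, 5 passed as higher and none (0) as lower. After quantile normalization the split over all genes was 772 higher and 634 lower, and 6 members passed, all 6 as higher. The 5 were Pdia3, Pdia4, Sec61a1, Ssr1 and Sec24d, which represent oxidative folding, translocation and export. The pairing is read from the data and not stated by the study, so the paired adjusted p values may be too small. In whole muscle, fewer cells of a type and less RNA per cell cannot be told apart.

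The same fit without the arrays of number 2 (Nf1Prx1 2 and control 2) passed 688 genes as higher (3.45%) and 7 members as higher. Of the 5 members called with all pairs, 4 were called again, and Ssr1 had an adjusted p of 0.0544. Canx, Eif2ak3 and Edem1 were called there as well. The calls depended on the other pairs: 2 members, Pdia3 and Sec24d, passed without number 1, where 2.13% of all genes passed as higher. None (0) passed without number 3 or without number 4, where 0.582% and 0.191% of all genes passed as higher. All 4 Nf1Prx1 arrays lay above all 4 control arrays for 4 members, Ssr1, Sec61a1, Eif2ak3 and Sec24d, which compares with 2.58% of all genes. The reverse held for 1 member, Sec23a, against 6.04% of all genes. Within the numbered pairs, 13 members were higher in all 4 Nf1Prx1 arrays, against 11.8% of all genes. Another 2, Dnajb9 and Sec23a, were lower in all 4, against 21.3% of all genes.

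**Figure D2:**
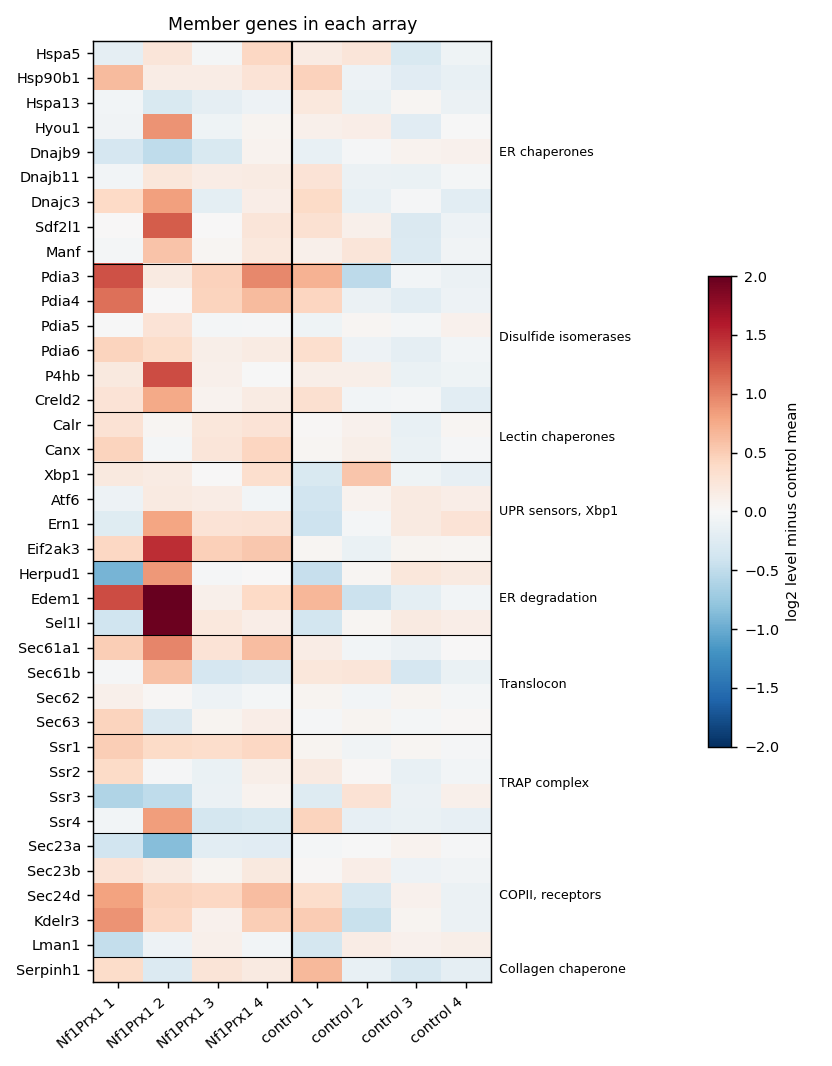
Level of each measured member in each array minus its control mean (log2, colour), with Nf1Prx1 arrays left of control arrays and genes grouped by role. The colour scale ends at 2.0, which Edem1 in Nf1Prx1 2 exceeded. Pdia3 lies above its control mean of 9.89 in all Nf1Prx1 arrays, though only slightly in Nf1Prx1 2 (10.07), and control 1 (10.59) is red as well. Sel1l, P4hb, Sdf2l1 and Hyou1 are deep red in Nf1Prx1 2 alone.

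The disulfide isomerases form, break and reshuffle disulfide bonds, and 2 of the 6 rose. Pdia3 (ERp57), which works with the lectin chaperones on glycoproteins, read 11.16, 10.07, 10.35 and 10.85 in Nf1Prx1 triceps 1 to 4 and 10.59, 9.37, 9.83 and 9.77 in controls 1 to 4. Each mutant array was above the control of its number, although the groups overlapped through control 1. The difference was 0.72 ± 0.11 (SE, log2), or 1.65-fold, with paired limma adjusted p = 0.0161 and unpaired adjusted p = 0.333. Without number 2 it was 0.73, with adjusted p = 0.0248. Pdia4 (ERp72), a further isomerase of secretory cargo, read 10.54, 9.45, 9.89 and 10.07 in Nf1Prx1 triceps and 9.87, 9.32, 9.24 and 9.35 in controls. Nf1Prx1 2 lay below control 1, the highest control, while the other 3 mutant arrays were above every control, and all pairs were ordered alike. Pdia4 rose by 0.54 ± 0.12 (SE, log2), or 1.46-fold, with paired limma adjusted p = 0.0346, and by 0.68 without number 2, with adjusted p = 0.0106.

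The other isomerases did not pass. P4hb, the founding member of the family and also the beta subunit of collagen prolyl 4-hydroxylase, read 10.65, 11.75, 10.55 and 10.45 in Nf1Prx1 triceps and 10.56, 10.57, 10.31 and 10.36 in controls. Its level in Nf1Prx1 2 was 1.10 above that of any other array, and the difference of 0.40 became 0.10 without this array. Pdia5 read 7.61, 7.89, 7.58 and 7.6 in Nf1Prx1 triceps and 7.54, 7.66, 7.58 and 7.71 in controls, and its difference of 0.04 became -0.03 without Nf1Prx1 2. Pdia6, which works with Hspa5 and carries the element shown above, averaged 9.20 ± 0.16 in Nf1Prx1 triceps and 8.93 ± 0.23 in controls (SD, n = 4 each), with a difference of 0.27 that was positive in all 4 pairs (paired limma adjusted p = 0.106) and 0.21 with adjusted p = 0.262 without number 2. Creld2, a stress-responsive ER protein with isomerase activity, averaged 8.84 ± 0.30 in Nf1Prx1 triceps and 8.52 ± 0.22 in controls (SD, n = 4 each), and its difference of 0.32 became 0.17 without Nf1Prx1 2.

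**Figure D3:**
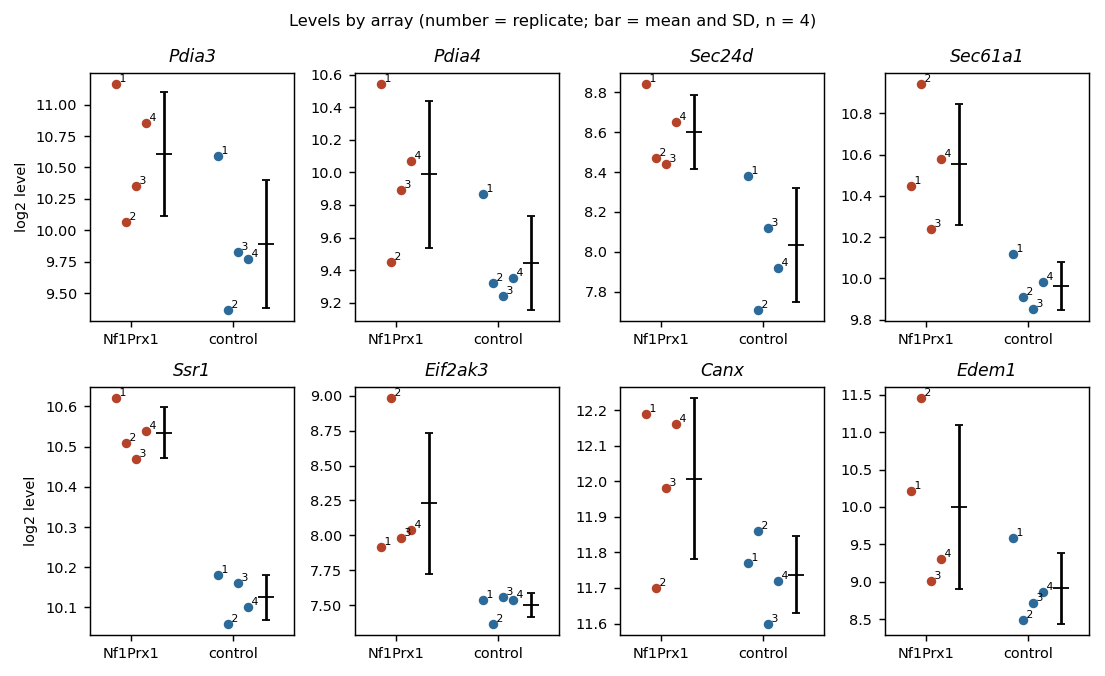
Log2 level of 8 members in each array, Nf1Prx1 (red) left of control (blue), with the replicate number beside each point and the mean and SD (n = 4) as a bar. Ssr1, Sec24d, Sec61a1 and Eif2ak3 had no overlap between the groups, and in Pdia3 and Pdia4 control 1 lay above Nf1Prx1 2.

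The lectin chaperones hold glycoproteins until their glycans are trimmed. Canx (calnexin), the membrane-bound one, read 12.19, 11.70, 11.98 and 12.16 in Nf1Prx1 triceps and 11.77, 11.86, 11.60 and 11.72 in controls. It was Nf1Prx1 2 that kept the groups from separating, since the other 3 Nf1Prx1 arrays lay above all controls. The difference of 0.28 had paired limma adjusted p = 0.203, and without number 2 it was 0.42, with adjusted p = 0.044. Calr (calreticulin), the soluble one, read 11.13, 10.88, 11.08 and 11.12 in Nf1Prx1 triceps and 10.87, 10.94, 10.70 and 10.88 in controls. Again Nf1Prx1 2 was the lowest of its group. The difference of 0.20 became 0.29 without number 2 and did not pass, with paired limma adjusted p = 0.236 and 0.121.

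Of the 9 ER chaperones and their cofactors, none (0) passed in either direction in the paired limma fit, with or without number 2, and none (0) had an unadjusted p under 0.05 in the unpaired fit. Hspa5 (BiP), the Hsp70 of the ER lumen and the usual marker of the unfolded protein response, read 10.66, 11.08, 10.81 and 11.25 in Nf1Prx1 triceps and 11.01, 11.08, 10.53 and 10.75 in controls. The groups overlapped throughout, and the differences within numbered pairs ran from -0.35 to 0.50. Its difference was 0.11 ± 0.14 (SE, log2), with paired limma adjusted p = 0.694, and 0.15 without number 2, with adjusted p = 0.671. Hsp90b1 (GRP94), the Hsp90 of the lumen, read 11.20, 10.71, 10.71 and 10.83 in Nf1Prx1 triceps and 11.03, 10.46, 10.34 and 10.42 in controls. It was higher in all 4 pairs by a difference of 0.30 ± 0.08 (SE, log2), short of the threshold at adjusted p = 0.0692, and 0.31 with adjusted p = 0.115 without number 2. Hyou1 (GRP170), a nucleotide exchange factor for Hspa5, read 8.75, 9.72, 8.73 and 8.88 in Nf1Prx1 triceps and 8.92, 8.95, 8.6 and 8.81 in controls, so only Nf1Prx1 2 lay above the control range. Its difference of 0.20 became -0.04 without that array.

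None of the J-domain cofactors of Hspa5 passed. Dnajb9 (ERdj4) averaged 9.98 ± 0.25 in Nf1Prx1 triceps and 10.24 ± 0.11 in controls (SD, n = 4 each) and was lower in all 4 pairs, with a difference of -0.26 (paired limma adjusted p = 0.156), or -0.19 without Nf1Prx1 2. Dnajb11 (ERdj3) averaged 8.33 ± 0.12 in Nf1Prx1 triceps and 8.21 ± 0.19 in controls (SD, n = 4 each), and its difference of 0.12 became 0.09. Dnajc3 (p58IPK) averaged 9.58 ± 0.43 in Nf1Prx1 triceps and 9.28 ± 0.26 in controls (SD, n = 4 each), and its difference of 0.29 became 0.11 without Nf1Prx1 2. Among the other stress-responsive genes, Sdf2l1, a partner of Dnajb11, averaged 8.92 ± 0.58 in Nf1Prx1 triceps and 8.55 ± 0.25 in controls (SD, n = 4 each), and its difference of 0.37 became 0.08. Manf, a stress-induced ER protein that can be secreted, averaged 8.47 ± 0.27 in Nf1Prx1 triceps and 8.28 ± 0.22 in controls (SD, n = 4 each), and its difference of 0.19 became 0.07. Hspa13 (Stch), an Hsp70 relative of the microsomes, averaged 8.49 ± 0.11 in Nf1Prx1 triceps and 8.65 ± 0.16 in controls (SD, n = 4 each), and its difference of -0.16 became -0.12. The larger positive differences in this group thus shrank without 1 array, and Hsp90b1 was the exception.

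Among the sensors of the unfolded protein response, Eif2ak3 stood out by separated groups. Eif2ak3 (Perk), the kinase that slows translation, read 7.92, 8.98, 7.98 and 8.04 in Nf1Prx1 triceps and 7.54, 7.37, 7.56 and 7.54 in controls. Nf1Prx1 2 was 0.94 above every other array, and the other 3 Nf1Prx1 arrays were also above all controls. With all pairs the difference of 0.73 ± 0.20 (SE, log2) missed the threshold at paired limma adjusted p = 0.0716. Without number 2 the difference was smaller, at 0.43, and passed with adjusted p = 0.0424. Ern1 (Ire1), the nuclease that splices Xbp1, read 8.26, 9.28, 8.77 and 8.78 in Nf1Prx1 triceps and 8.08, 8.46, 8.68 and 8.77 in controls. Its difference of 0.27 became 0.11 without Nf1Prx1 2, and the groups overlapped.

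Atf6, the sensor that is cut in the Golgi, read 9.28, 9.56, 9.53 and 9.33 in Nf1Prx1 triceps and 9.0, 9.46, 9.56 and 9.51 in controls. The groups covered much the same range, with a difference of 0.04 ± 0.10 (SE, log2; paired limma adjusted p = 0.853) that became -0.01 without Nf1Prx1 2. Xbp1, the transcription factor that Ire1 activates, read 11.52, 11.49, 11.33 and 11.65 in Nf1Prx1 triceps and 11.02, 11.87, 11.23 and 11.16 in controls. Control 2 held the highest level of all, and the difference of 0.18 did not pass (paired limma adjusted p = 0.538). Without number 2 it was 0.36, with adjusted p = 0.116. The cluster level does not tell spliced from unspliced Xbp1.

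In ER-associated degradation, Edem1 and Sel1l were the members that moved most with Nf1Prx1 2. Edem1, a lectin that sends misfolded glycoproteins to degradation, read 10.21, 11.45, 9.01 and 9.31 in Nf1Prx1 triceps and 9.58, 8.49, 8.72 and 8.86 in controls. It was higher in each pair, by 0.63, 2.96, 0.29 and 0.45 for numbers 1 to 4. The mean difference of 1.08 ± 0.41 (SE, log2) did not pass (paired limma adjusted p = 0.151), and without number 2 it was 0.46, or 1.37-fold, and passed with adjusted p = 0.0494. Sel1l, the scaffold of the Hrd1 ubiquitin ligase, read 9.44, 11.79, 10.05 and 9.97 in Nf1Prx1 triceps and 9.47, 9.88, 10.02 and 9.97 in controls. Apart from Nf1Prx1 2, each mutant array lay within 0.03 of the control of its number. Herpud1, a stress-induced partner of the same ligase, read 10.41, 12.22, 11.32 and 11.35 in Nf1Prx1 triceps and 10.89, 11.39, 11.58 and 11.53 in controls. Its difference of -0.02 became -0.32 without Nf1Prx1 2. In pairs 1, 3 and 4 the mutant array was lower, by -0.47, -0.26 and -0.18 as differences, which did not pass (paired limma adjusted p = 0.132 without number 2).

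Translocation into the ER gave 2 of the 5 calls. Sec61a1, the channel-forming subunit of the translocon, read 10.45, 10.94, 10.24 and 10.58 in Nf1Prx1 triceps and 10.12, 9.91, 9.85 and 9.98 in controls, with no overlap. It rose by 0.59 ± 0.13 (SE, log2), or 1.5-fold, with paired limma adjusted p = 0.0346, and by 0.44 without number 2, with adjusted p = 0.0496. The small subunit Sec61b averaged 8.58 ± 0.42 in Nf1Prx1 triceps and 8.6 ± 0.29 in controls (SD, n = 4 each). The accessory subunits Sec62 and Sec63, which help proteins enter after translation, had differences of -0.01 and 0.09 in the same fit and did not pass. Without Nf1Prx1 2 the differences were -0.22 for Sec61b, where all arrays gave -0.02, -0.02 for Sec62 and 0.21 for Sec63. The difference between subunits was not tested.

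The translocon-associated protein complex (TRAP) assists the entry of some signal sequences. Ssr1 (TRAP alpha) read 10.62, 10.51, 10.47 and 10.54 in Nf1Prx1 triceps and 10.18, 10.06, 10.16 and 10.10 in controls. The groups were fully apart, and the SD was 0.06 within each, with no array far from its group. Ssr1 rose by 0.41 ± 0.08 (SE, log2), or 1.33-fold, with paired limma adjusted p = 0.0256, and its unpaired adjusted p of 0.125 was the lowest of the members. The partner subunits did not pass. Ssr2 had a difference of 0.09, or 0.12 without Nf1Prx1 2. Ssr3 averaged 11.09 ± 0.32 in Nf1Prx1 triceps and 11.38 ± 0.24 in controls (SD, n = 4 each), and its difference of -0.29 became -0.21. Ssr4 read 9.83, 10.71, 9.53 and 9.58 in Nf1Prx1 triceps and 10.33, 9.72, 9.75 and 9.72 in controls, so Nf1Prx1 2 and control 1 each stood above their group. The Ssr4 difference of 0.03 became -0.24 without Nf1Prx1 2.

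For export from the ER, Sec24d rose and Sec23a lay lower. Sec24d, a cargo-binding COPII subunit needed for procollagen export in zebrafish, read 8.84, 8.47, 8.44 and 8.65 in Nf1Prx1 triceps and 8.38, 7.71, 8.12 and 7.92 in controls. All mutant arrays lay above all controls. It rose by 0.57 ± 0.10 (SE, log2), or 1.48-fold, with paired limma adjusted p = 0.0216, and by 0.50 without number 2, with adjusted p = 0.0433. Sec23a, a further COPII coat subunit, read 10.49, 10.02, 10.66 and 10.64 in Nf1Prx1 triceps and 10.84, 10.86, 10.94 and 10.85 in controls. Every mutant array lay below every control, with Nf1Prx1 2 the lowest. The difference of -0.42 ± 0.12 (SE, log2) missed the threshold at paired limma adjusted p = 0.0709, and was -0.28 with adjusted p = 0.13 without number 2. Its paralog Sec23b averaged 9.32 ± 0.09 in Nf1Prx1 triceps and 9.15 ± 0.10 in controls (SD, n = 4 each), higher in all 4 pairs and not past the threshold (adjusted p = 0.231, and 0.221 without number 2).

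The cargo receptors did not pass. Kdelr3, a receptor that returns escaped KDEL proteins to the ER, read 8.76, 8.28, 7.95 and 8.35 in Nf1Prx1 triceps and 8.38, 7.42, 7.92 and 7.74 in controls. It was higher in all 4 pairs, by 0.38, 0.86, 0.03 and 0.61, with a mean difference of 0.47 and paired limma adjusted p = 0.0778, and 0.34 with adjusted p = 0.17 without number 2. Lman1 (ERGIC-53), a mannose lectin that carries glycoproteins to the Golgi, read 10.45, 10.82, 11.02 and 10.86 in Nf1Prx1 triceps and 10.57, 11.07, 11.00 and 11.04 in controls. The number 1 array was the lowest of each group, and the difference of -0.13 did not pass (paired limma adjusted p = 0.381) and was -0.14 without Nf1Prx1 2. Serpinh1 (Hsp47), the chaperone of procollagen, read 9.38, 8.74, 9.27 and 9.20 in Nf1Prx1 triceps and 9.66, 8.87, 8.69 and 8.84 in controls. It was lower in the pairs of numbers 1 and 2 and higher in those of 3 and 4, so the difference of 0.13 had adjusted p = 0.649, and without number 2 it was 0.22, with adjusted p = 0.499. With control 1, Nf1Prx1 1 and Nf1Prx1 2 left out of the unpaired fit, it was 0.43 with adjusted p = 0.043.

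Of the 5 members that rose, 4 had a promoter window and Sec61a1 had none. None (0) of the 4 held the ER stress response element described above, and of the 6 with a window among those called without number 2 only Canx held it. The windows of Pdia3, Pdia4 and Ssr1 held none of the 3 motifs, which says only that these letters are not in these windows. Sec24d, which rose, and Sec23a, with lower levels, both held TGACGTGG.

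Much of the members' variation followed single arrays. Nf1Prx1 2 held the highest of the 8 levels for 15 members, against 19.1% of all genes. Nf1Prx1 1, an array high in neutrophil markers, Ucp1 and Cidea, held it for 13, against 17.6% of all genes. For 7 members, Nf1Prx1 2 lay more than 0.5 above the highest other array, against 1.35% of all genes. These were Hyou1, Sdf2l1, P4hb, Eif2ak3, Edem1, Sel1l and Herpud1, with Sel1l at 1.73 and Edem1 at 1.24 above the next array. The same array held the lowest Nf1Prx1 level for Pdia3, Pdia4, Canx, Calr and Serpinh1, so members lay at either end of the mutant range in it. Other ER genes with high levels in pancreas were far higher in it, as named after their values were seen. Pdia2, the pancreatic disulfide isomerase, read 12.40 in Nf1Prx1 2 and 5.96 to 6.16 in the other 3 mutants, against 5.89 to 6.47 in controls. Ero1b, the oxidase of secretory cells, read 10.54 in Nf1Prx1 2 and 7.0 to 7.03 in the other mutant arrays, against 6.71 to 7.14 in controls. Derl3, a degradation factor, read 10.78 there and 7.33 to 7.61 in the other mutant arrays, against 7.23 to 7.61 in controls. The part of pancreatic transcripts in the member levels of Nf1Prx1 2, and of marrow or brown fat transcripts in those of Nf1Prx1 1, was not tested.

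**Figure D4:**
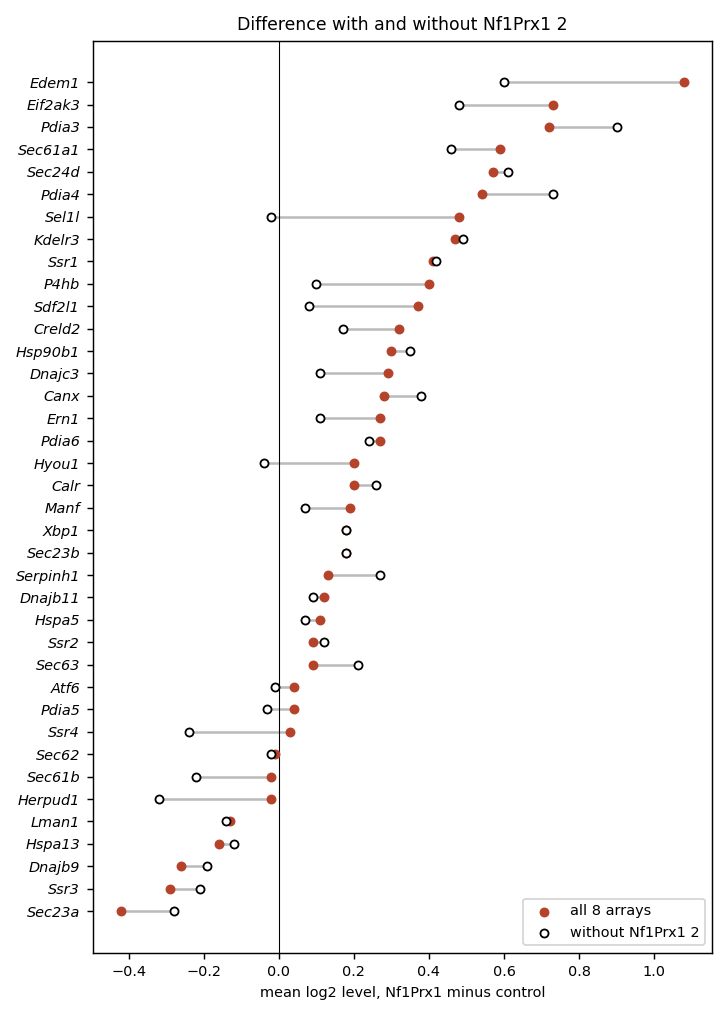
Mean log2 level in Nf1Prx1 minus control triceps for each measured member, with all 8 arrays (filled) and without Nf1Prx1 2 (open). Edem1, Sel1l, P4hb and Sdf2l1 moved toward 0 without that array, Herpud1 moved to -0.32, and Pdia3, Pdia4 and Canx moved away from 0.

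Markers of other cell types moved with the called members too. Adipocyte markers averaged 12.43, 10.20, 10.62 and 11.13 in Nf1Prx1 triceps and 11.27, 8.89, 8.70 and 8.92 in controls, and all 7 measured of them passed as higher in the paired limma fit. Fibroblast markers averaged 10.89, 10.27, 10.79 and 10.99 in Nf1Prx1 triceps and 10.67, 9.83, 10.06 and 10.18 in controls, with 6 of 8 passing as higher. Macrophage markers averaged 9.42, 8.88, 9.16 and 9.38 in Nf1Prx1 triceps and 9.39, 8.25, 8.47 and 8.63 in controls, with 4 of 9 passing as higher. Without number 2, 7 of 7 adipocyte, 4 of 8 fibroblast and 3 of 9 macrophage markers passed as higher. In these lists, as for Pdia3, Pdia4 and Kdelr3, control 1 was the highest control array. Plasma cell markers averaged 7.36 to 7.64 in Nf1Prx1 triceps and 7.31 to 7.43 in controls, so their ranges overlapped. Whether more cells of these types account for part of the member differences was not tested.

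The rest of the secretory pathway did not move as a block. Over 12 further lists of ER and traffic genes, 119 were measured, of which 4 passed as higher and 4 as lower in the paired limma fit, shares close to those of all genes. Without number 2 the counts were 5 and 3, and Plod2 (adjusted p = 0.0191) and Nupr1 (adjusted p = 0.0189) were called higher only there. The calls with all pairs were spread over 5 lists. Os9, a lectin of ER-associated degradation and partner of Sel1l, read 9.36, 9.90, 9.24 and 9.27 in Nf1Prx1 triceps and 8.82, 8.52, 8.62 and 8.66 in controls, fully apart. It rose 1.72-fold, with adjusted p = 0.0241 and 0.0167 without number 2. Crtap, part of the collagen prolyl 3-hydroxylase complex, rose 1.53-fold (adjusted p = 0.0168, and 0.0112 without number 2), and Tusc3, an oligosaccharyltransferase subunit, rose 1.27-fold (adjusted p = 0.0406, and 0.0655 without number 2). Of the ER membrane protein complex, an insertase for membrane proteins, Emc6 and Emc4 fell, by 0.61 and 0.42 on the log2 scale, with adjusted p = 0.0205 and 0.04. Without number 2 their adjusted p values were 0.0377 for Emc6 and 0.0885 for Emc4.

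In the list of the Atf4 and Chop arm, 1 gene passed as higher and 2 as lower in the paired limma fit. Which stress sensor acts on these genes was not tested. Chac1, a glutathione-degrading enzyme induced by Atf4, read 8.45, 9.31, 8.96 and 9.20 in Nf1Prx1 triceps and 10.94, 9.99, 11.61 and 11.73 in controls. It fell by 2.09 on the log2 scale, with paired limma adjusted p = 0.015 and 0.000147 without number 2, and the groups were fully apart. Asns, the asparagine synthetase that Atf4 also induces, read 10.45, 11.31, 8.91 and 9.28 in Nf1Prx1 triceps and 9.33, 7.94, 7.57 and 7.95 in controls. Only control 1 reached the mutant range. Asns rose 3.46-fold, with adjusted p = 0.0262 and 0.00234 without number 2. Atf3, a stress transcription factor, fell by 0.78 on the log2 scale, with adjusted p = 0.0488 and 0.104 without number 2. Nupr1, also in this list, had a difference of 1.43 with adjusted p = 0.157, and passed as higher without number 2 (adjusted p = 0.0189). Atf4 itself (difference -0.22, paired limma adjusted p = 0.163) and Ddit3, which encodes Chop (difference 0.01, adjusted p = 0.968), did not pass. Over the 10 measured genes of this list, 5 means were higher and 5 lower, with a median difference of -0.01.

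In the remaining lists no gene passed in the paired limma fit with all pairs. Signal recognition particle and receptor genes were lower in mean for 6 of 7, with the smallest p for Srp14 (difference -0.33, adjusted p = 0.0674) and Srpr (difference -0.38, adjusted p = 0.0694). Srpr passed without number 2, with adjusted p = 0.045. Ppib, the cyclophilin that folds procollagen, read 11.13, 11.59, 10.90 and 10.99 in Nf1Prx1 triceps and 11.12, 10.05, 10.17 and 10.32 in controls. Only control 1 reached the mutant range, and the difference of 0.74 had adjusted p = 0.0788, and 0.119 without number 2. Ganab, the catalytic glucosidase II subunit, had a difference of 0.29 with adjusted p = 0.0663, and the COPII organiser Sec16b one of 0.37 with adjusted p = 0.116. The smallest p in the signal peptidase list was that of Spcs1, with a difference of -0.24 and adjusted p = 0.15. In the COPI list it was that of Gbf1 (difference -0.17, adjusted p = 0.253), and among cargo receptors that of Tmed3 (difference 0.23, adjusted p = 0.334). None of Srp14, Ganab, Sec16b, Spcs1, Gbf1 and Tmed3 passed without number 2, with adjusted p from 0.0635 for Sec16b to 0.764 for Tmed3.

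The authors' deposited table gives the same comparison for single probe sets, which lie mostly on single exons. The spread and T it lists point to 5 arrays per group where its notes state 4, so which of the 8 arrays above it includes is not known. In the authors' deposited table, the highest values of Ctrb1 had a median over 7 probe sets of 10.6 in mutant and 12.5 in control muscle, where the cluster levels reached 14.36 in Nf1Prx1 2 and 11.90 in control 2. The highest values of Pdia2 in the authors' deposited table had a median over 12 probe sets of 6.8 in mutant and 6.5 in control muscle, where its cluster level reached 12.40 in Nf1Prx1 2 and 6.47 in controls. Probe set and cluster levels were made separately, so these values are set side by side and not tested. In that table of the authors, 515 probe sets belong to 39 members, 353 with a higher and 162 with a lower mean in mutant muscle. The 26 probe sets of Dnajc3 hold 13 sets of values, each listed under 2 IDs, and counted once they leave 502, 344 higher and 158 lower, with the same median. Their median difference was 0.16 on the log2 scale, against -0.03 over all 234873 probe sets of that table. The authors' list of higher probe sets holds 10 of the 515 (1.94%), against 0.765% of all probe sets, and their list of lower ones holds none (0), against 0.367%. After adjustment over the whole authors' deposited table, no member probe set had an adjusted p under 0.05.

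Members called above, with or without number 2, had mostly higher probe sets in the authors' deposited table. The probe sets of a gene were read on the same arrays, so they are not separate replicates. For Pdia3 14 of 14 probe sets were higher, with a median difference of 0.81, and for Sec24d 23 of 23, with a median of 0.58. For Pdia4 10 of 11 were higher (median 0.75), for Ssr1 12 of 13 (median 0.51) and for Sec61a1 13 of 15 (median 0.44). Eif2ak3 had 16 of 17 higher (median 0.50), Edem1 11 of 13 (median 0.63) and Canx 16 of 16 (median 0.32). Hsp90b1, which was not called in either paired fit, had 19 of 19 higher (median 0.43). The probe set of Pdia3 with the largest F score had means of 10.7 in mutant and 9.2 in control muscle in the authors' deposited table, or 2.81-fold, with the authors' p = 0.000435. The 10 listed probe sets belong to Pdia4 (3), Pdia3 (2), Sec24d (2), Sec61a1 (1), Eif2ak3 (1) and Ern1 (1).

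Members that were high in Nf1Prx1 2 alone had smaller differences in the authors' deposited table. There P4hb had a median difference of 0.15, Hyou1 0.09 and Sel1l 0.08, and Sdf2l1 had 2 probe sets higher and 2 lower. Herpud1 was lower in 8 of 8 probe sets of that table, with a median of -0.31, close to the -0.32 of the cluster level without Nf1Prx1 2. Sec23a was lower in 20 of 22 probe sets (median -0.24), Dnajb9 in 3 of 3 (median -0.45), and Ssr3 and Ssr4 in 6 of 6 each (medians -0.33 and -0.22). Sec61g, which had no cluster level here, was lower in 8 of 8 probe sets of the authors' deposited table, with a median of -0.13, and some of these may lie in pseudogene copies. None of its single values had an unadjusted p under 0.05. For Hspa5 7 of 10 probe sets were higher, with a median of 0.11, the same as its cluster difference.

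**Figure D5:**
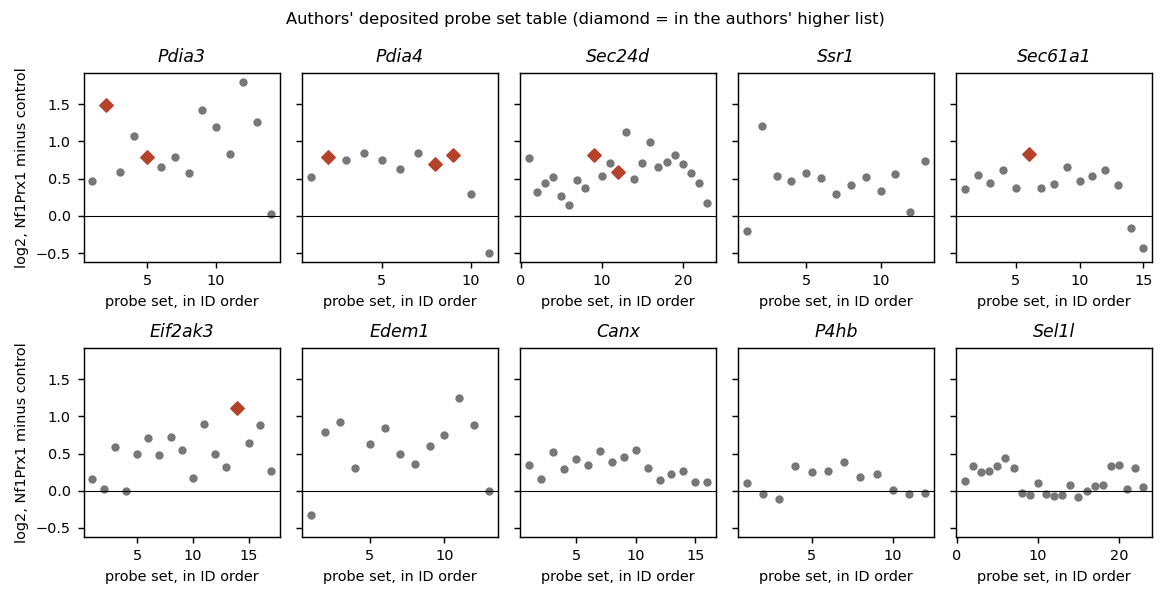
Difference in mean log2 intensity, Nf1Prx1 minus control, for each probe set of 10 members in the authors' deposited table, in order of probe set ID, with diamonds for probe sets in the authors' list of higher ones. Nearly all points of Pdia3, Pdia4, Sec24d, Ssr1 and Sec61a1 lie above 0, and those of P4hb and Sel1l lie near 0.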

How the data were processed

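Per the submitters' processing notes, the authors made the deposited log2 levels per transcript cluster with RMA in the Affymetrix Expression Console; versions and genome build are not given in the sources used here. The platform annotation named 1 gene for 21789 of 35556 clusters, several for 1621 and none for 12146; the cluster with the highest mean stood for a gene (999 genes had several), which gave 19938 genes with array medians of 7.57 to 7.67. Current symbols came from the Entrez IDs of 21698 clusters.

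The authors' deposited table of 234873 probe sets gives, per the file headers, group means and SD of log2 intensity, an unadjusted p-value, a ratio of control over mutant and the F and T scores of an analysis of variance; per the deposited notes, the authors' lists hold probe sets with F above 20. Differences were turned here to Nf1Prx1 minus control. Manf appears in the authors' deposited table under an older symbol.

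The two-sided moderated test of limma 3.58.1 (R 4.3.3) was run over all genes, p values were adjusted by Benjamini-Hochberg, and the threshold was 0.05. No gene was filtered. Across genes, same-numbered arrays deviated together from their groups, with correlations of 0.71, 0.57, 0.39 and 0.30, each over the limit of 0.1, so the replicate number was used as a block in the paired fit. The pairing comes from the data: Nf1Prx1 4 also correlated with control 3 at 0.30 and Nf1Prx1 3 with control 4 at 0.29. The 4 animals per group are labelled as biological replicates. The fits were tested on simulated data.

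The members and all lists were chosen with earlier results of these data known. The rule for array values named the members called in the paired fit, 9 fixed genes, the 3 that moved most without Nf1Prx1 2 and those with an array far from its group; values of Canx, Kdelr3, Sec23a and Herpud1 were added after seeing them. Of each further list, up to 3 genes with the smallest paired p were eligible. Promoter windows of 300 bases came from RefSeq (GRCm38.p6). Protein sequences were not used here. Tables were read with pandas 2.3.3 and drawn with matplotlib 3.10.9.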

Additional observations from a re-analysis of the deposited data

Results flagged for a closer look

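In 7 of 76 groups of 4 arrays (38 members in each genotype), the highest or lowest array lay far from the other 3 by Dixon's test. The nominal rate of the test is about 1 in 20. The members share the same 8 arrays, and the share over all genes was not computed. The count therefore does not tell whether members were flagged more often than other genes. Of the 7 flagged groups, 4 had high values of Nf1Prx1 2, the array highest in pancreatic acinar markers. Hyou1 read 9.72 there, against 8.73 to 8.88 in the other Nf1Prx1 arrays, and P4hb 11.75, against 10.45 to 10.65. Eif2ak3 read 8.98, against 7.92 to 8.04, and Pdia5 7.89, against 7.58 to 7.61. Among controls, Eif2ak3 was low in control 2 at 7.37, against 7.54 to 7.56 in the others. Control 1 was high for Ssr4 at 10.33, against 9.72 to 9.75, and low for Lman1 at 10.57, against 11.00 to 11.07. The part of other tissues' transcripts in these values was not tested.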

How the results depend on the processing

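In the unpaired limma fit no member passed (0), and the count was 5 with the replicate block, 10 with array weights (Hsp90b1, Pdia3, Pdia4, Calr, Canx, Eif2ak3, Sec61a1, Ssr1, Sec24d and Kdelr3) and 7 without control 1, Nf1Prx1 1 and Nf1Prx1 2 (Pdia3, Pdia4, Eif2ak3, Sec61a1, Ssr1, Sec24d and Serpinh1). Over all genes the unpaired count of 0 became 1667 with the replicate block, 3070 with array weights, 96 without control 1 and Nf1Prx1 1, 1215 without those and Nf1Prx1 2, 5 after quantile normalization and 0 to 3 when 1 array was left out. The members' median of 0.19 ran from 0.11 (without Nf1Prx1 2) to 0.28 (quantile normalization) over the 17 alternatives of the unpaired fit, and 28 members kept the sign of their difference in all of them. In the paired fit, leaving out 1 number gave 0 to 7 members and 50 to 1202 genes, against 5 and 1667. Leaving out numbers 1 and 2 together, chosen after seeing the data, gave 8 members (Hsp90b1, Pdia3, Pdia4, Canx, Eif2ak3, Sec61a1, Sec24d and Serpinh1) and 2001 genes. Quantile normalization, a trend and robust prior, the mean of all clusters and dim genes left out gave 4 to 6 members. The cause of these moves was not tested. Fits with arrays left out also had fewer arrays, and this was not separated from which arrays were left out.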
